A study of Rattus norvegicus with 12 samples.

Results

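The cholinergic and starburst amacrine genes of the rat retina were followed after an excitotoxic injection. The set was chosen by gene name and held 7 genes: Chat, Slc5a7, Slc18a3, Ache, Megf10, Megf11 and Fezf1. Of these, 6 matched 1 row each among the 30560 genes of the deposited table, and all 6 were among the 16260 genes tested. Slc18a3 matched no row and was not analysed here. Each of 12 rats gave 1 total RNA library of the retina. In the control group, 6 rats received 2 µL of PBS in the vitreous, and in the other group 6 rats received 2 µL of 20 mM NMDA, a glutamate analogue that injures retinal neurons by overstimulating the receptors named after it. The libraries are called PBS 1 to PBS 6 and NMDA 1 to NMDA 6. Not given in the sources used here were strain, age, sex and the interval from injection to collection. The labels name the rats separately, so each library was taken as 1 animal.

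Starburst amacrine cells are the acetylcholine-releasing interneurons of the inner retina. They also release GABA, and their inputs to ganglion cells make the retina sensitive to the direction of motion. Choline acetyltransferase, encoded by Chat, makes acetylcholine from choline and acetyl-CoA. The high-affinity choline transporter, encoded by Slc5a7, brings choline back into the terminal, and the vesicular transporter, encoded by Slc18a3, loads acetylcholine into vesicles. Acetylcholinesterase, encoded by Ache, breaks the transmitter down in the synaptic cleft and is made by many kinds of neurons, not by starburst cells alone. Megf10 and Megf11 encode receptors with EGF-like repeats by which starburst and horizontal cells space themselves from neighbours of their own type, and MEGF10 also serves glia in the engulfment of debris. Fezf1 encodes a zinc finger transcription factor of the starburst cells that lie among the ganglion cells.

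The deposited annotation gives Chat (ENSRNOG00000025012, chromosome 16, 7657362 to 7717093) the type pseudogene, and the other genes the type protein coding. RefSeq annotates Chat as protein coding in its GRCr8 build of the rat genome, and places 1 other gene, Slc18a3, wholly inside the span of Chat, with its start 602 bases downstream of the Chat start on the same strand. No other row of the deposited table overlapped the span of Chat. Whether reads of Slc18a3 were counted as Chat was not tested. Positions of measured genes are copied from the deposited table. Its genome build is not given in the sources used here.

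The sequences upstream of 4 genes are shown because Chat and Slc5a7 fell together whereas Ache did not, and because Slc18a3 shares the locus of Chat. Each is the stretch of 250 bases that ends just before the annotated start in RefSeq, build GRCr8, on the minus strand, written 5′ to 3′. Capitals mark matches, on either strand, to the GC box (GGGCGG), the CCAAT box (CCAAT) and the TATA box (TATAAA), and neighbouring matches to the GC box may overlap. The windows are chr16:7723417-7723666 for Chat, chr9:7953510-7953759 for Slc5a7, chr16:7722815-7723064 for Slc18a3 and chr12:25050411-25050660 for Ache.
Chat: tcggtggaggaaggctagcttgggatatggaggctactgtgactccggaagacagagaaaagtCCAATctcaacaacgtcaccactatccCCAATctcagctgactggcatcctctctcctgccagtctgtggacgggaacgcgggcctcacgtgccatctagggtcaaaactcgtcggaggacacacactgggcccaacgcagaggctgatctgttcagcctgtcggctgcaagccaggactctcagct
Slc5a7: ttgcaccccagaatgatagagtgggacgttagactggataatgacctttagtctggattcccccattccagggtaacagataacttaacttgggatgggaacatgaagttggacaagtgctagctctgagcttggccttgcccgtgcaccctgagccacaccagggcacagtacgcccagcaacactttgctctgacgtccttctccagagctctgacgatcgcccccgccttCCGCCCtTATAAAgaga
Slc18a3: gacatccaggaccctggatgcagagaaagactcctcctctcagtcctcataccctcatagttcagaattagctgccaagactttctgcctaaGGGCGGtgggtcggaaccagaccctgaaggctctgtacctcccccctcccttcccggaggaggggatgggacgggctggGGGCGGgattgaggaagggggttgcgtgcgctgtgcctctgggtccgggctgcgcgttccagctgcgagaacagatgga
Ache: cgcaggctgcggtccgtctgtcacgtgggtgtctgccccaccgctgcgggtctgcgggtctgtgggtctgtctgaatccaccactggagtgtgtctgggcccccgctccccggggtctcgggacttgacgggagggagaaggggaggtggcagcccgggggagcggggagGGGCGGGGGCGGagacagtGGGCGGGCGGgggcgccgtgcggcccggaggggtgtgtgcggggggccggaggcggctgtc
The window of Chat held 2 CCAAT boxes and no GC box, and that of Slc5a7 held 1 GC box and 1 TATA box. The window of Ache held 4 GC boxes and that of Slc18a3 held 2. Among the promoters of 27457 genes, a GC box was found in 32.4%, a CCAAT box in 34.3% and a TATA box in 13.1% of windows of the same length. The window of Ache was the richest of the 4 in G and C, at 75.6%, against 57.2% for Chat, 53.2% for Slc5a7 and 61.6% for Slc18a3, and the median over all promoters was 52.0%. The full cAMP response element (TGACGTCA; 1.70% of all promoters) and the homeodomain motif TAATTA (4.94%) were in none of the 4 windows. These matches describe letters only, and 6 of the 7 genes had an entry among the promoters. Of the windows not shown, that of Fezf1, which like Ache was not called lower, held 1 GC box and 1 CCAAT box. It had 53.6% G and C. Megf11, which fell, had several annotated starts, with 52.0% to 60.4% G and C. Whether the letters go with the changes after NMDA was not tested.

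Library totals ran from 16415611 to 34022023 counts. Counts were scaled to a common total (CPM) with TMM factors, which adjust for differences in library composition, and tested with edgeR's quasi-likelihood test with Benjamini-Hochberg adjustment over all genes and a threshold of 0.05. By this rule 2852 genes fell (17.5%) and 3315 rose (20.4%), with a median log2 fold change of 0.01 over all genes tested. With scaling by library size alone 2324 fell and 4230 rose. The first principal component of log2 CPM (44.7% of the variance) split the groups, with PBS below 0 and NMDA above. On the second (15.7%), NMDA 1 and NMDA 3 stood at opposite ends, at 62.2 and -32.5, so results are also given without both. Prph2, a photoreceptor outer segment gene that marks retina, averaged 5089 CPM with PBS and 3916 with NMDA. It was itself among the genes that fell (log2 fold change -0.38, edgeR adjusted p = 0.000781).

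Transcripts for making acetylcholine and taking up choline fell after NMDA, Chat to 0.441 and Slc5a7 to 0.422 of the PBS level. Megf11 fell too, Megf10 rose, and neither Ache nor Fezf1 passed the test. Thus 3 of the 6 measured genes fell and 1 rose, against 17.5% and 20.4% of all genes. In both Chat and Slc5a7 every NMDA library lay below every PBS library, a separation seen in 8.66% of all genes, and in no gene of the set did every NMDA library lie above every PBS library (9.43% of all genes). In whole retinas, fewer cells of a type and less RNA per cell cannot be told apart.

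**Figure D1:**
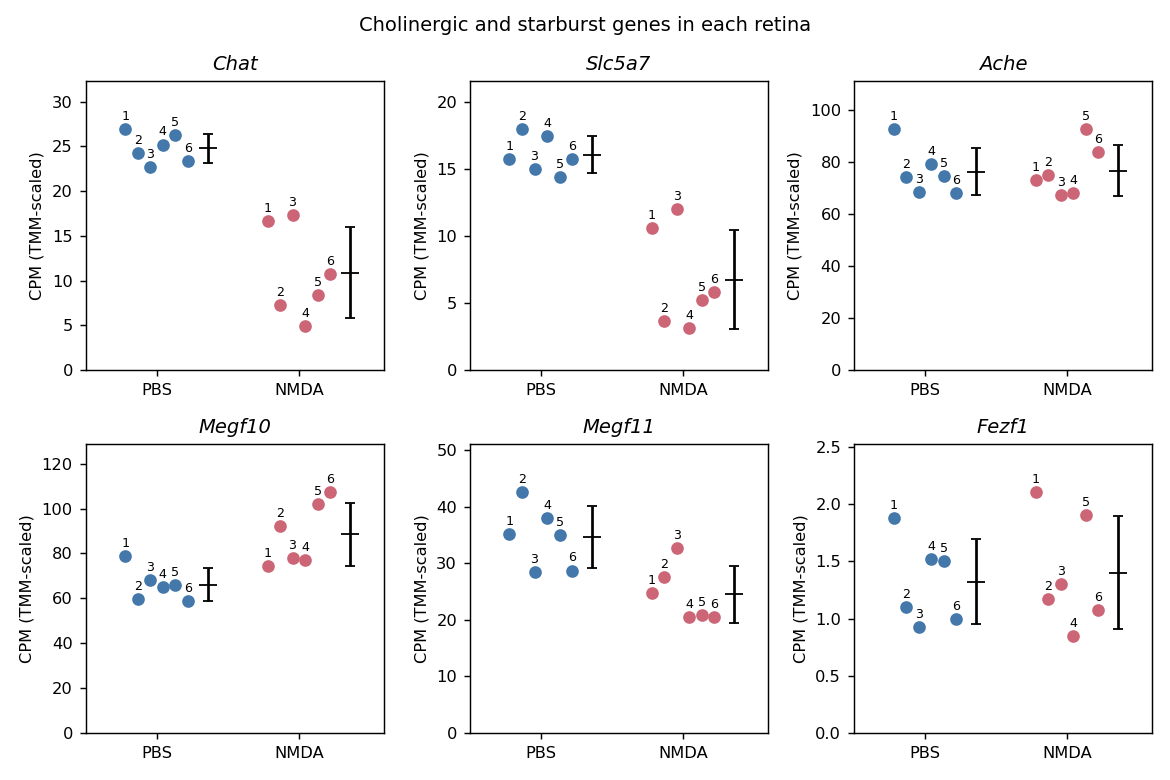
Level of each measured gene in each retina, in TMM-scaled CPM (vertical axis, from 0) for the PBS and NMDA groups (horizontal axis); points are libraries with their label numbers, and bars show the mean and SD over 6 libraries. Chat and Slc5a7 separate the groups with NMDA 1 and NMDA 3 highest among the NMDA libraries, whereas the groups overlap for the other genes.

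Chat, the enzyme gene of acetylcholine synthesis, ranged from 22.7 to 26.9 CPM with PBS, with a median of 24.7, and from 4.97 to 17.3 with NMDA, with a median of 9.60. The PBS libraries lay close together, and the NMDA libraries spread widely below them. The mean was 24.8 ± 1.65 CPM with PBS and 10.9 ± 5.06 with NMDA (SD, n = 6 each). The fitted log2 fold change was -1.18 with an SE of 0.26 (edgeR adjusted p = 0.00362). Of all genes tested, 146 (0.898%), Chat included, had a log2 fold change as low or lower. Without NMDA 1 and NMDA 3 the log2 fold change of Chat was -1.66.

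Slc5a7, the choline transporter gene (ENSRNOG00000010597, chromosome 9, 7595444 to 7626258), ranged from 14.4 to 18.0 CPM with PBS, with a median of 15.8, and from 3.16 to 12 with NMDA, with a median of 5.56. As for Chat, the groups did not overlap. Its mean was 16.1 ± 1.39 CPM with PBS and 6.77 ± 3.70 with NMDA (SD, n = 6 each). The log2 fold change was -1.25 ± 0.30 (SE; edgeR adjusted p = 0.00573), and 126 genes (0.775%) had one as low or lower. Without NMDA 1 and NMDA 3 it was -1.85.

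The libraries that kept more Chat also kept more Slc5a7. Relative to the PBS mean, NMDA 4 had 20.0% of Chat and 19.7% of Slc5a7, the lowest of both. NMDA 2 had 29.6% and 22.7%, NMDA 5 had 34% and 32.7%, and NMDA 6 had 43.5% and 36.4%. NMDA 1 (67.1% and 66.2%) and NMDA 3 (69.9% and 74.7%) had the highest of both, so that the order of the 6 libraries was the same for the 2 genes. Chat fell slightly less than Slc5a7, the change in Chat minus that in Slc5a7 being 0.10 ± 0.097 (SE) on the log2 scale, which did not pass a two-sided exact permutation test of their log2 ratio (adjusted p = 0.379 over 27 pairs of genes; n = 6 each). The ratio of Chat to Slc5a7 in FPKM, which counts reads per length of transcript, was 2.11 ± 0.241 with PBS and 2.28 ± 0.288 with NMDA (SD, n = 6 each).

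**Figure D2:**
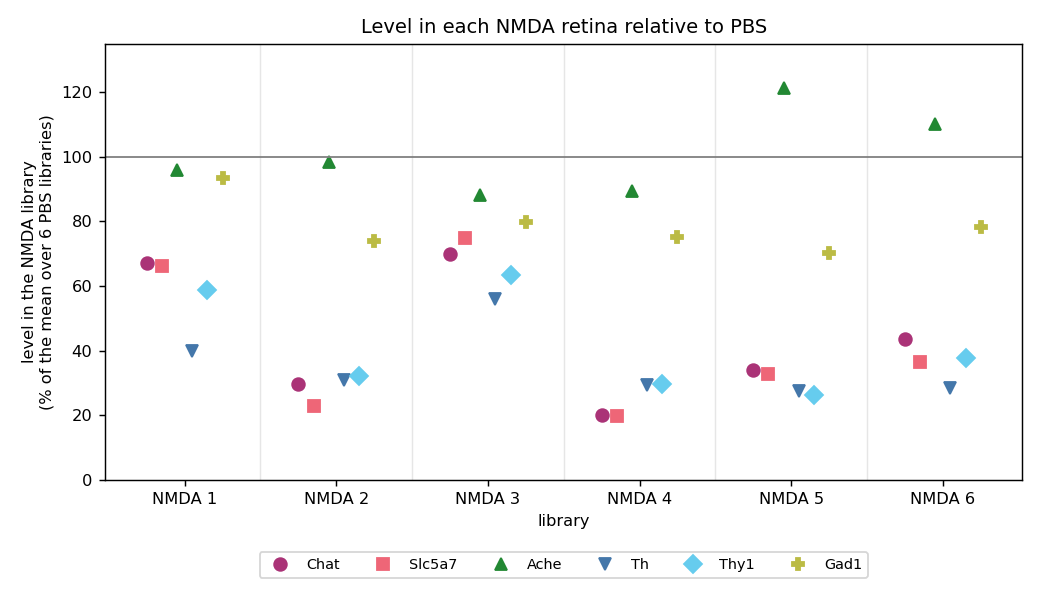
Level of Chat, Slc5a7 and Ache, and of Th, Thy1 and Gad1 for comparison, in each NMDA library (horizontal axis) as a percentage of the mean over the 6 PBS libraries (vertical axis; grey line at 100). Chat and Slc5a7 run from 20.0% and 19.7% in NMDA 4 to 69.9% and 74.7% in NMDA 3, and Ache stays between 88.3% and 121%. In NMDA 6, Thy1 (37.7%) lies between Chat (43.5%) and Slc5a7 (36.4%).

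Ache, the transmitter-degrading enzyme gene (ENSRNOG00000050841, chromosome 12, 19407360 to 19413651), ranged from 68.1 to 92.5 CPM with PBS, with a median of 74.4, and from 67.2 to 92.5 with NMDA, with a median of 74.0. The groups covered nearly the same range. Its mean was 76.2 ± 8.99 CPM with PBS and 76.6 ± 9.80 with NMDA (SD, n = 6 each). The log2 fold change was 0.01 with a 95% interval from -0.19 to 0.21 (edgeR adjusted p = 0.956). The sign of this value depended on the scaling, since DESeq2 size factors gave a value just below 0. Chat fell by 1.32 ± 0.30 (SE) more than Ache on the log2 scale, and in the ratio of the 2 genes every NMDA library lay below every PBS library (two-sided exact permutation test, n = 6 each, adjusted p = 0.00835). The ratio of Ache to Chat in FPKM was 4.82 ± 0.330 with PBS and 13.3 ± 6.08 with NMDA (SD, n = 6 each). Red cells and muscle also make acetylcholinesterase. Of 4 tested red cell genes none passed, with a summed level of 76.8 to 111 CPM with PBS and 78.4 to 188 with NMDA. Of 5 tested skeletal muscle genes 1 fell, Acta1 (-0.48). Among all genes tested 17.5% fell and 20.4% rose. The summed level of 9 muscle genes was 7.36 to 9.44 CPM with PBS and 5.16 to 7.95 with NMDA. Myog had no count in the NMDA libraries, and the part of either source in Ache was not tested.

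Megf10 and Megf11 moved in opposite directions. Megf10 (ENSRNOG00000013674, chromosome 18, 50605656 to 50754456) ranged from 58.8 to 78.9 CPM with PBS, with a median of 65.4, and from 74.2 to 107 with NMDA, with a median of 85.1. Of the NMDA libraries 3 lay above the highest PBS library, and the other 3 within the PBS range. The mean was 66 ± 7.30 CPM with PBS and rose to 88.5 ± 14.1 with NMDA (SD, n = 6 each). The log2 fold change was 0.42 ± 0.10 (SE; edgeR adjusted p = 0.00626), and 0.51 without NMDA 1 and NMDA 3.

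Megf11 (ENSRNOG00000010634, chromosome 8, 64892387 to 65216061) ranged from 28.4 to 42.6 CPM with PBS, with a median of 35.1, and from 20.4 to 32.7 with NMDA, with a median of 22.8. Of the NMDA libraries 5 lay below the lowest PBS library, and NMDA 3 lay within the PBS range. The mean was 34.7 ± 5.45 CPM with PBS and fell to 24.5 ± 4.95 with NMDA (SD, n = 6 each). The log2 fold change was -0.50 ± 0.14 (SE; edgeR adjusted p = 0.0107), and -0.64 without NMDA 1 and NMDA 3. The changes of the 2 genes differed by 0.92 ± 0.21 (SE) on the log2 scale (two-sided exact permutation test, n = 6 each, adjusted p = 0.0106). Their ratio in FPKM, Megf10 over Megf11, was 1.75 ± 0.328 with PBS and 3.39 ± 0.997 with NMDA (SD, n = 6 each).

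Both genes are also made outside starburst cells, Megf10 in glia and both in horizontal cells. Of 12 Müller glia and astrocyte genes 2 rose, Vim and Gfap, intermediate filament genes (1.46 and 1.50), and 5 fell, among them Glul, the glutamine synthetase gene (-1.05), against 20.4% higher and 17.5% lower among all genes. The summed level of this list was 4971 to 6640 CPM with PBS and 4031 to 4983 with NMDA. Most of this sum was Glul, which averaged 2526.5 CPM with PBS and 1219 with NMDA, and Dkk3 (1625 and 996). The rises of Vim (317 and 873) and Gfap (150 and 423) weigh less in it. Of 6 horizontal cell genes 2 fell, Calb1, for calbindin (-0.47), and Gja10, for a connexin (-0.50), and 4 did not pass, against 17.5% of all genes lower. Their summed level was 67.9 to 90.0 CPM with PBS and 51.4 to 65.7 with NMDA. Most of this sum was Calb1, which averaged 54.5 CPM with PBS and 39.3 with NMDA. All members of both lists had counts in both groups. The part of glia in the rise of Megf10, and of horizontal cells in the fall of Megf11, was not tested.

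Fezf1 (ENSRNOG00000007608, chromosome 4, 51762751 to 51766078) had low counts, 15 to 58 per library. It ranged from 0.928 to 1.88 CPM with PBS, with a median of 1.30, and from 0.846 to 2.11 with NMDA, with a median of 1.24. The groups overlapped over most of their range. The mean was 1.32 ± 0.373 CPM with PBS and 1.4 ± 0.497 with NMDA (SD, n = 6 each). The log2 fold change was 0.07 with a 95% interval from -0.48 to 0.62 (edgeR adjusted p = 0.855; -0.10 without NMDA 1 and NMDA 3). A fall as large as that of Chat lies outside this interval, and a rise as large as that of Megf10 lies inside it. Chat fell by 1.37 ± 0.26 (SE) more than Fezf1 on the log2 scale (two-sided exact permutation test, n = 6 each, adjusted p = 0.00835).

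Of the 15 pairs among the 6 genes, 11 differed in their change after adjustment over the 27 pairs. Chat and Slc5a7 each differed from all of the other 4 genes. The smallest called difference was that of Ache minus Megf10, -0.41 ± 0.066 (SE), where every NMDA library lay on the same side of every PBS library (two-sided exact permutation test, n = 6 each, adjusted p = 0.00835). Ache and Megf11 differed by 0.52 ± 0.19 (SE), and this call (exact permutation adjusted p = 0.0468) ended in 10 of the 12 repeats that left out 1 library (adjusted p up to 0.0974). The pairs that did not pass were Chat and Slc5a7, and Fezf1 with Ache, Megf10 and Megf11. The change in Ache minus that in Fezf1 was -0.05 ± 0.21, that in Megf10 minus Fezf1 was 0.36 ± 0.25, and that in Megf11 minus Fezf1 was -0.57 ± 0.25 (SE). Megf10 minus Fezf1 passed when NMDA 1 was left out (0.53, exact permutation adjusted p = 0.0468).

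**Figure D3:**
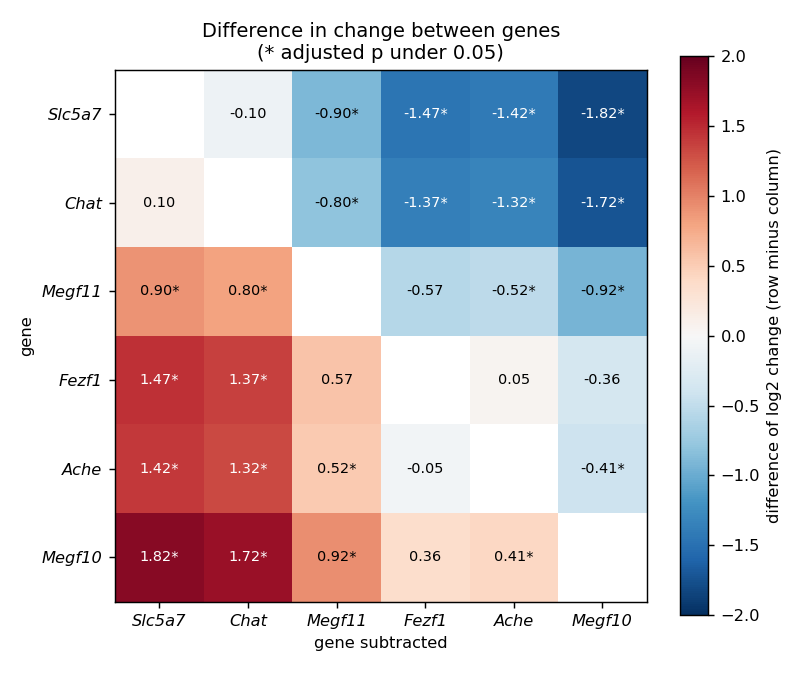
Difference between 2 genes in their log2 change after NMDA, the gene of the row minus the gene of the column (colour and printed value), with an asterisk where the exact permutation test passed after adjustment. Slc5a7 and Chat differ from every gene but each other, and both stand farthest from Megf10, at -1.82 and -1.72.

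Levels of different genes were compared in FPKM. With PBS the order was Ache (32.7 ± 3.80), Megf10 (10.2 ± 1.12), Chat (6.78 ± 0.457), Megf11 (5.95 ± 0.943), Slc5a7 (3.23 ± 0.277) and Fezf1 (0.539 ± 0.152; SD, n = 6 each). Only Chat (6.23 to 7.32) and Megf11 (4.89 to 7.31) overlapped among the neighbours in this order. With NMDA the order of these 2 was the other way round, Megf11 at 4.35 ± 0.858 and Chat at 3.08 ± 1.4 FPKM (SD, n = 6 each), again with overlapping ranges. Slc5a7 averaged 1.402 ± 0.753 FPKM with NMDA, and its lowest library (0.657) lay within the range of Fezf1 (0.357 to 0.868).

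Other genes that handle acetylcholine or choline were called about as often as genes at large. Of 12 such genes 3 fell, 1 rose and 8 did not pass, against 17.5% lower and 20.4% higher among all genes tested, and their median log2 fold change was -0.02, against 0.01. Slc10a4, which encodes a vesicle protein of cholinergic and monoaminergic neurons, averaged 5.43 ± 1.18 CPM with PBS and 2.64 ± 1.2 with NMDA (SD, n = 6 each), and it fell by 1.04 ± 0.29 (log2, SE; edgeR adjusted p = 0.0118). Its level in PBS 3, 3.53 CPM, lay below those in NMDA 1 and NMDA 3, 3.98 and 3.95. Prima1, whose product anchors acetylcholinesterase in the membrane of neurons, fell from 25.5 ± 2.81 to 17.4 ± 2.79 CPM (-0.55 ± 0.11, SE, edgeR adjusted p = 0.00133), with every NMDA library below every PBS library, whereas Ache itself did not pass. Acly, which makes acetyl-CoA, fell by 0.17 on the log2 scale, and Chka, a choline kinase gene, rose by 0.20. Bche, the butyrylcholinesterase gene (-0.05), Colq, the collagen tail gene of the enzyme at the neuromuscular junction (0.03), and the choline transporter-like genes Slc44a1 to Slc44a5 (-0.52 to 0.06) did not pass.

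Most tested acetylcholine receptor genes fell. Of 18 receptor genes 14 were tested, and of these 10 fell and 1 rose, with a median log2 fold change of -0.54, against 17.5% lower and 20.4% higher among all genes. Chrm2, a muscarinic receptor gene, fell by 0.86 and Chrm3, another, by 0.57. Chrna6, a nicotinic subunit gene of ganglion cells, fell by 0.91 and Chrna4, another nicotinic subunit gene, by 0.46. In these 4 genes every NMDA library lay below every PBS library, a separation seen in 8.66% of all genes. The 4 were named for having the smallest adjusted p of the list, a choice that favours such separation. They are therefore not comparable with that share. Chrna2, Chrna7 and Chrnb3 were separated in the same way, and in the other tested receptor genes the groups overlapped. Chrnb4, a further nicotinic subunit gene chosen after its values were seen, was the 1 that rose (0.53 ± 0.17, SE, edgeR adjusted p = 0.0239). Chrna1, Chrna9, Chrna10 and Chrm5 had too few counts to be tested.

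**Figure D4:**
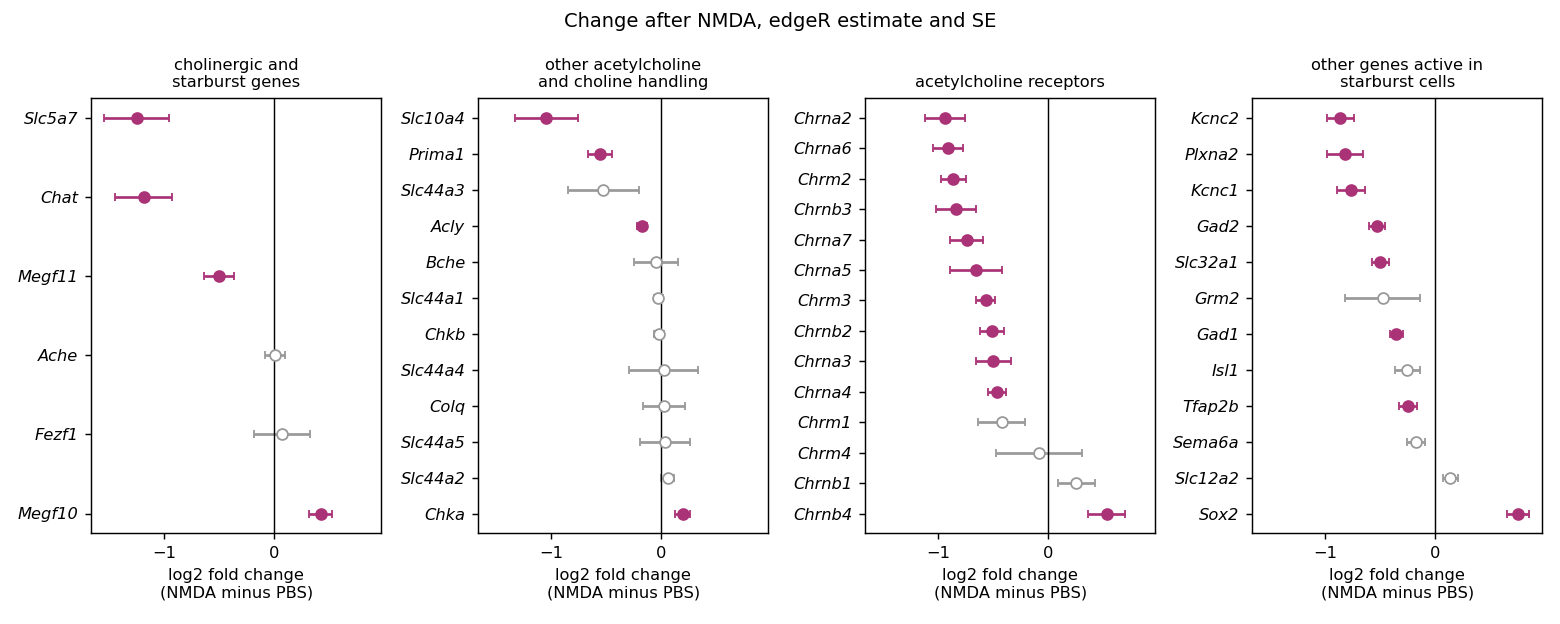
Log2 fold change after NMDA (horizontal axis, NMDA minus PBS) of the measured starburst genes, of other genes of acetylcholine and choline handling, of acetylcholine receptors and of other genes active in starburst cells; points are edgeR estimates, bars the SE, and filled points passed the threshold. Slc5a7 (-1.25) and Chat (-1.18) lie lower than any other gene shown, and Slc10a4 (-1.04) follows.

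Starburst cells share many genes with other retinal cells. Of 12 further genes active in starburst cells, 7 fell and 1 rose, against 17.5% and 20.4% of all genes, with a median log2 fold change of -0.41. Of the genes for making GABA and loading it into vesicles, Gad2 fell by 0.53, Slc32a1 fell by 0.50 and Gad1 fell by 0.35. Kcnc2, the gene of a fast potassium channel used by starburst cells, fell by 0.86. Sox2, a transcription factor gene of starburst cells and of Müller glia, was the 1 that rose (0.75), with every NMDA library above every PBS library, and Isl1, a transcription factor gene of starburst, bipolar and ganglion cells, did not pass (-0.25, edgeR adjusted p = 0.101). The change in Chat minus that in Gad1 was -0.96 ± 0.25 (SE), and that in Slc5a7 minus Gad1 was -1.06 ± 0.29 (two-sided exact permutation tests, n = 6 each, adjusted p = 0.00835 and 0.0106).

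Genes of other retinal neurons were listed beside the starburst genes, against 17.5% lower and 20.4% higher among all genes. Of 19 tested genes of other amacrine types 16 fell and none rose (median -0.42), and of 12 ganglion cell genes 11 fell and none rose (median -1.41). Of 10 rod genes 7 fell and none rose (median -0.39), and of 8 bipolar cell genes 1 fell and 1 rose (median -0.13). Slc17a8, the vesicular glutamate transporter gene of a class of amacrine cells, fell by 0.99 ± 0.25 (SE) more than Chat and by 0.89 ± 0.25 more than Slc5a7 (two-sided exact permutation tests, n = 6 each, adjusted p = 0.00835 and 0.0125). No difference from Th, the dopamine synthesis gene of other amacrine cells, passed: the change in Chat minus that in Th was 0.21 ± 0.20, and that in Slc5a7 minus that in Th was 0.11 ± 0.23 (SE; exact permutation adjusted p = 0.379 and 0.706). Against Thy1, a ganglion cell surface gene, the differences were 0.05 ± 0.15 for Chat and -0.05 ± 0.17 for Slc5a7 (SE; exact permutation adjusted p = 0.791 for both). Against Nefl, a neurofilament gene, they were 0.29 ± 0.16 and 0.19 ± 0.18, and against Calb2, the calretinin gene, 0.30 ± 0.12 and 0.20 ± 0.12 (SE; exact permutation adjusted p from 0.0657 to 0.379). The differences of Chat from Th and Nefl, and of both genes from Calb2, passed when NMDA 4 was left out (adjusted p from 0.00974 to 0.0455). Chat minus Calb2 also passed with all 12 libraries on log2(FPKM + 0.1), at 0.33 (exact permutation adjusted p = 0.0429).

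The genes whose pattern was most like the mean of Chat and Slc5a7 were Camk2a, a calmodulin-dependent kinase gene, Kndc1, Nefm, a neurofilament gene, Arpp21 and Thy1. Likeness was the root mean square difference in log2 CPM, each library relative to the PBS mean, over 12 libraries and 12394 named genes that averaged 1 or more in log2 CPM. It was 0.20 for Camk2a, 0.23 for Kndc1, 0.24 for Nefm, 0.24 for Arpp21 and 0.24 for Thy1, with a median of 1.09 over the 12394 genes. Chat and Slc5a7 were 0.17 from each other. Each was 0.084 from the mean of the 2, which follows by arithmetic because that mean is made of them. This value is not comparable with those of the other genes. Camk2a averaged 29.2 ± 2.23 CPM with PBS and 12.3 ± 4.78 with NMDA (SD, n = 6 each; edgeR adjusted p = 0.000653). Relative to its PBS mean, Thy1 had 58.8% and 63.3% in NMDA 1 and NMDA 3 and 26.2% to 37.7% in the other NMDA libraries. All these profiles share the same libraries and the same PBS mean.

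Some lymphocytes also make Chat. Of 10 lymphocyte genes 9 had a row and 4 were tested, and Cd8a and Cd3e rose. The summed level of the 9 was 2.84 to 4.92 CPM with PBS and 4.29 to 8.80 with NMDA. Chat itself was at 4.97 to 17.3 CPM with NMDA, so these ranges overlapped, and the part of lymphocytes in the level of Chat was not tested. Cd3d, of the T cell receptor complex, and Ms4a1, of B cells, had no count with PBS.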

How the data were processed

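Total RNA of 12 rat retinas was sequenced, 6 injected with PBS and 6 with NMDA. The authors deposited unscaled whole counts per gene and, in further columns, FPKM, per the file headers. The submitters' processing notes list Bowtie2, RSEM 1.3.1 and DESeq2 1.4.5 and give no roles. Not given in the sources used here are the genome build, the strand setting and what was done with reads of several matches, so that Megf10 and Megf11, which are related, and genes overlapping others carry that uncertainty.

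Counts were filtered with edgeR's filterByExpr (count minimum 10, total minimum 15), scaled by TMM and fitted with a robust quasi-likelihood model in edgeR 4.0.16 (R 4.3.3), two-sided, with the group as the only term. Levels are CPM with the SD of 6 libraries. Log2 fold changes, NMDA minus PBS, carry the SE or 95% interval of the fit. Differences in change between 2 genes were tested on their log2 CPM ratio (prior count 2) with a two-sided exact permutation test (924 assignments, smallest p 0.00216), with Benjamini-Hochberg adjustment over 27 pairs. The scripts were tested on simulated data. Gene lists were described by counts and medians only.

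All 7 genes were to be named, up to 4 genes of each list with the smallest adjusted p, and the 5 most alike genes. Any other gene was named with its values in view. Some listed genes are not reported here. The members and the 12 lists (138 symbols, 134 with a row) were chosen with earlier results of these data known. Alternatives used DESeq2 1.42.0, limma 3.58.1 (voom with quality weights, and trend on log2(FPKM + 1) and log2(FPKM + 0.1)), other scalings and filters, a block for the replicate number, and left-out libraries or genes. No pair of libraries of a group had equal counts. Counts limit precision, and p-values weigh the difference between the groups against the spread between these rats.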

Additional observations from a re-analysis of the deposited data

How the results depend on the processing

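Each of Chat, Slc5a7, Megf10 and Megf11 kept its direction and its call in all 24 alternatives. Leaving out 1 library gave log2 fold changes of -1.37 to -1.03 for Chat, -1.49 to -1.10 for Slc5a7, 0.36 to 0.48 for Megf10 and -0.60 to -0.44 for Megf11. The other alternatives gave -1.66 to -1.001, -1.85 to -0.87, 0.41 to 0.51 and -0.64 to -0.38, and the highest adjusted p over all was 0.0340, for Megf10 with the replicate block. Ache and Fezf1 passed in no alternative run, and their signs turned. Ache was -0.0015 with DESeq2 size factors, -0.0017 with the DESeq2 Wald test and -0.052 to 0.071 with 1 library left out. Fezf1 was -0.035 with limma voom, -0.10 without NMDA 1 and NMDA 3 and -0.089 to 0.20 with 1 library left out, and a filter of 10 CPM in 6 libraries removed it. With the replicate block, Chat was at -1.30 (adjusted p = 0.00746) and Slc5a7 at -1.40 (adjusted p = 0.0120), and 5593 genes were called in place of 6167. The numbers are not said to mark a shared litter or day, and same-numbered libraries deviated together with correlations of -0.19 to 0.15 across genes, 1 of 6 being best with its own number, so the block was not used to pair the rats. Genes called ranged from 4565 to 7090 over the alternatives. The lowest number came with the filter of 10 CPM in 6 libraries, which left 10815 genes to test in place of 16260. Of the 27 pairs of genes 15 passed, and 14 to 18 with 1 library left out. Signs turned in some uncalled pairs: with 1 library left out, Ache minus Fezf1 ran from -0.14 to 0.089, Slc5a7 minus Th from -0.0096 to 0.25, Chat minus Thy1 from -0.021 to 0.17 and Slc5a7 minus Thy1 from -0.13 to 0.049, and the last was 0.0076 with log2(FPKM + 0.1). The cause was not tested. Fezf1 had the lowest counts of the 6 genes, 15 to 58 in a library, and how far depth or the spread between rats sets its interval was not tested.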
